A study of Mus musculus with 10 samples.

Results

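The 9 genes described here carry the signal of leukaemia inhibitory factor (LIF) in mouse embryonic stem (ES) cells. They are Lifr, Il6st, Jak1, Stat3, Socs3, Pim1, Pim3, Junb and Bcl3. All 12 probes that the array files name for these genes were taken, out of 39429 gene probes on the array under 31660 gene or transcript names, and all 12 were well above background on all 10 arrays in both dye channels. Lifr had 3 probes, Stat3 had 2 and each of the other genes had 1.

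The series compared ES cells without Tet1 and Tet2, the dioxygenases that oxidise 5-methylcytosine in DNA, with wild-type cells on two-colour oligonucleotide arrays. The groups were double knockouts (DKO; male lines 51 and 61, female lines 60 and 59), 1 male Tet2 knockout (T2KO 16), 2 male Tet1 knockouts (T1KO 99 and 65) and wild type (WT; male lines 6 and 92, female lines 7 and 94). All lines were of a mixed C57BL/6 background, and all were grown in medium with LIF on irradiated feeder cells, which preplating was meant to remove ahead of RNA extraction, so no line was measured without LIF. DKO RNA in Cy5 was hybridised against WT RNA of the same sex in Cy3 on 6 arrays, which make 4 pairs of lines, and T2KO 16 in Cy5 against T1KO 65 in Cy3 on 2 arrays. A further 2 arrays held T1KO 99 in Cy3, with a Cy5 sample that the labels exclude for its genotype. No dyes were swapped. DKO and T2KO were therefore always read in Cy5 and WT and T1KO in Cy3, and in a Cy5 over Cy3 ratio genotype and dye cannot be told apart. There were 3 slides, 1 for the male DKO pairs, 1 for the female DKO pairs and 1 for the arrays with T1KO lines.

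LIF binds its receptor LIFR, which pairs with the shared signal transducer gp130, the product of Il6st. The kinase JAK1, bound to these receptors, phosphorylates STAT3, which enters the nucleus and activates genes that keep mouse ES cells undifferentiated. Among the genes that STAT3 activates, Socs3 encodes an inhibitor that shuts the receptor down, Pim1 and Pim3 encode kinases that favour survival and self-renewal, Junb encodes a subunit of the transcription factor AP-1, and Bcl3 encodes a cofactor of NF-κB.

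The Lifr probes are shown because they gave different ratios. The first 30 bases of each 60-base probe are printed in lower case with no part marked, and positions follow mm9, the build used for the array, on the plus strand. The brightest probe lies at chr15:7147319-7147378 and the next at chr15:7141150-7141209, both assigned to the main Lifr transcript. The third, at chr15:7135072-7135131, is assigned to transcript variant 2. No exon annotation of that build was used, so the exon or untranslated region each probe reads is not given here.
Lifr brightest probe: catagatgatgtaaatagcctaagacactg
Lifr second probe: agaacaaaccaaatgactaaccaggtcacc
Lifr transcript variant 2 probe: taaaaacttggaaatgtatccaggcctaac

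The promoter of Socs3 is shown because it was the only one among the members that held the letters of a STAT site. The windows, from RefSeq on GRCm38.p6, ran from 250 bases before to 50 bases after each annotated start, and all 9 genes had at least 1 window. The letters TTCNNNGAA, searched on both strands, stood in 2726 of 32851 windows of all genes (8.298%), and the stricter TTCCNNGAA, which is contained in the first, in 1581 (4.813%) and in no member's window. The stretch below lies at chr11:117969497-117969535 and is written along the minus strand, that of the gene, with the match in capitals. It is a match of letters and no evidence of binding.
Socs3 promoter: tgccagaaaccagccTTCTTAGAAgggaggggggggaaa

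Each array had 43020 gene spots. The share well above background was 62.6% to 69.0% in Cy5 and 55.2% to 61.5% in Cy3, with no saturated spot. The 12 member probes differed between repeat arrays of the same lines by 0.05 log2 units at the median and by at most 0.21. The targeted genes went with the labels on their brightest probes. The brightest Tet1 probe had levels of 10.52 to 11.07 in DKO lines and 10.92 to 11 in T1KO lines, against 12.91 in T2KO 16 and 12.78 to 13.12 in WT lines, and the brightest Tet2 probe had 9.40 to 10.12 in DKO lines and 9.74 in T2KO 16, against 11.43 to 11.58 in T1KO lines and 11.51 to 12.05 in WT lines. Another, dimmer Tet2 probe did not follow the labels, with DKO over WT log2 ratios of 0.02, 0.38, 0.39 and -0.06 and levels of 7.73 in T2KO 16 and 7.69 in T1KO 65, and the deleted stretch of the gene is not given in the sources used here. All levels are normalised log2 intensities of 1 probe. They compare lines, not genes, because brightness depends on the probe as well as on the RNA.

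The main comparison asked whether these genes differ when both enzymes are absent. It used the log2 DKO over WT ratios of the 4 pairs, tested in limma (two-sided) with Benjamini-Hochberg adjustment over 25869 tested probes. None of the 12 member probes passed the adjusted threshold of 0.05, while 1035 of all tested probes did (633 higher and 402 lower in DKO), which is 4.0%. At an unadjusted p under 0.05 there were 6 of 12 member probes, against 26.0% of all tested probes. With only the brightest probe of each gene tested, there were 4 of 9 members, against 5412 of 20666 probes. The median log2 ratio of the member probes was -0.12, with 4 above and 8 below 0, and that of all tested probes was 0.02. The other call sets were smaller, with 0% of probes called in the contrast of male and female pairs, 0% in T2KO over T1KO, 0% for Tet1 loss with the dye cancelled, 0% in T1KO over WT, and 0.00773% (2 probes) in DKO over T2KO. In none of these did limma call a member, and the member probes at an unadjusted p under 0.05 numbered 2, 6, 3, 1 and 1 in that order. The shares of all tested probes at that level were 5.06%, 12.7%, 10.2%, 13.3% and 12.8%.

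**Figure D1:**
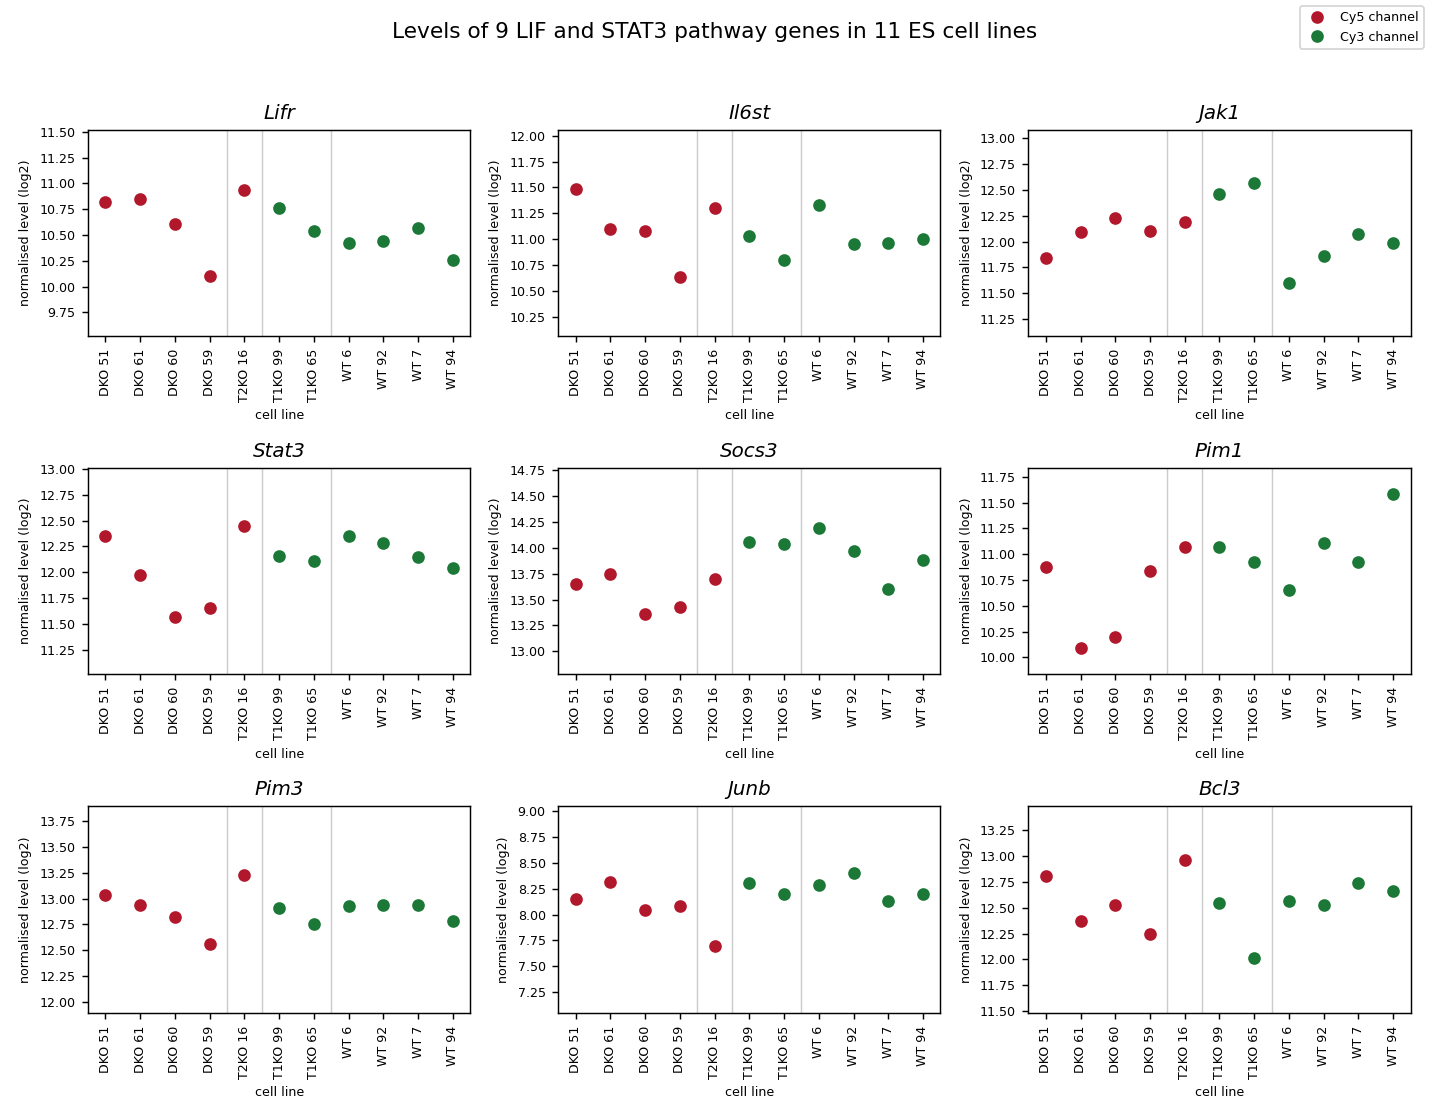
Normalised log2 level (y axis, each panel 2 log2 units tall) of the brightest probe of each gene in the 11 lines (x axis); each point is 1 line, red for Cy5 and green for Cy3. Socs3 lies at 13.36 to 13.75 in the Cy5 lines and 13.60 to 14.19 in the Cy3 lines, Jak1 is highest in the T1KO lines (12.46 and 12.57), and Junb is lowest in T2KO 16 (7.70).

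Socs3, the feedback inhibitor, came closest to the threshold. Its level was 13.65 in DKO 51, 13.75 in DKO 61, 13.36 in DKO 60 and 13.43 in DKO 59, against 14.19 in WT 6, 13.97 in WT 92, 13.60 in WT 7 and 13.88 in WT 94. The DKO line was the lower one in all 4 pairs, although over all lines the groups overlapped, since WT 7 lay between the female and the male DKO lines. The log2 ratios were -0.54, -0.22, -0.24 and -0.45, with a mean of -0.36 (SE 0.0796, 95% interval -0.56 to -0.16, limma adjusted p = 0.0752), a 1.28-fold difference. With all arrays kept and pairs entered as a random block, the same value had a limma adjusted p of 0.0473. With each array centred on its median in place of the intensity-dependent normalization, the ratio of this bright probe was 0.06, where the median of all probes was 0.19.

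The comparisons that hold the dye constant gave Socs3 values near 0. The labelled Cy5 lines all lacked Tet2, and the Cy3 lines did not. These comparisons therefore hold Tet2 constant too, and dye and Tet2 loss cannot be told apart in these arrays. The level was 13.70 in T2KO 16, 14.06 in T1KO 99 and 14.04 in T1KO 65. Male DKO lines minus T2KO 16, both in Cy5, gave 0.00 (SE 0.132, 95% interval -0.34 to 0.35), and T1KO minus male WT lines, both in Cy3, gave -0.04 (SE 0.141, 95% interval -0.38 to 0.31). The T2KO over T1KO ratio, read across the dyes like the DKO over WT ratios, was -0.33 (SE 0.175, and 0.19 with median centring). After loess, all 5 pairs thus had less Socs3 signal in Cy5 than in Cy3. The male DKO over WT mean minus the T2KO over T1KO ratio, divided by 2, in which a dye effect common to the arrays cancels, was -0.02 (SE 0.107, 95% interval -0.31 to 0.27, limma adjusted p = 0.964). It is called Tet1 loss with the dye cancelled below, since it averages DKO minus T2KO and T1KO minus WT. An effect of Tet2 loss common to both ratios cancels in it as well.

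**Figure D2:**
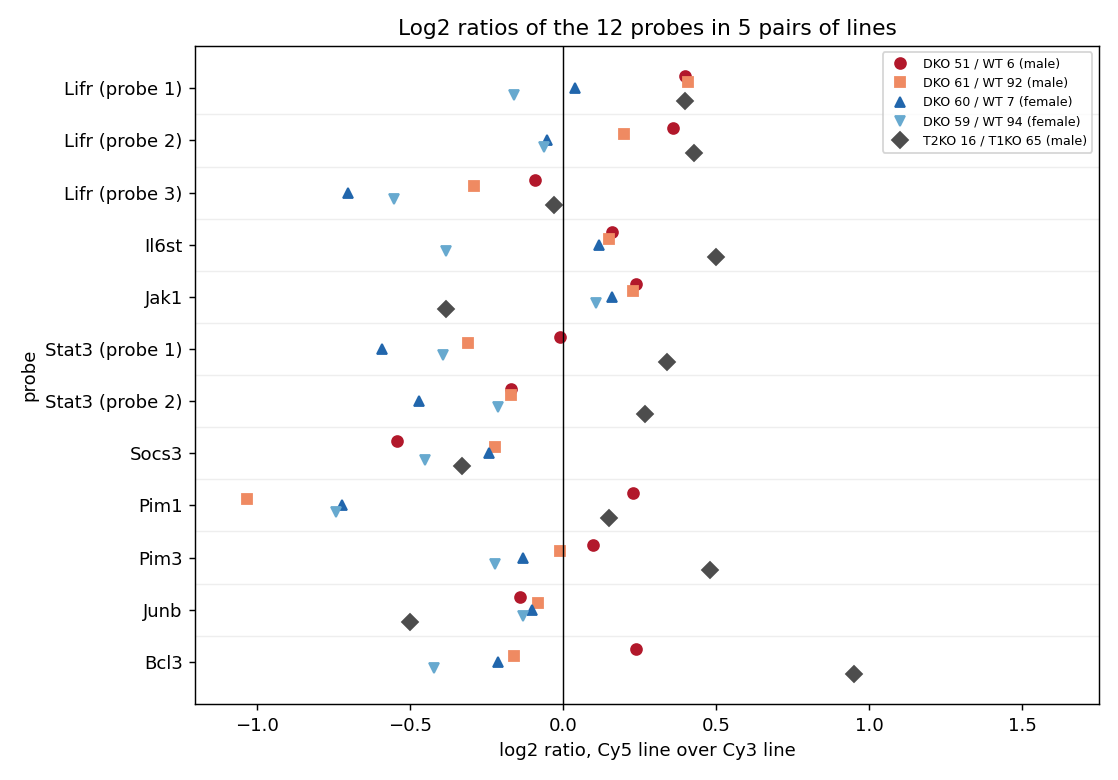
Log2 ratio of the Cy5 line over the Cy3 line (x axis) for each of the 12 probes (rows), 1 point per pair of lines, with repeat arrays averaged; probes of a gene are numbered from the brightest. Socs3, Junb and the third Lifr probe lie below 0 in all 5 pairs, Jak1 lies above 0 in the 4 DKO over WT pairs and below 0 in T2KO over T1KO, and Stat3 shows the opposite arrangement to Jak1.

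Among the receptors, Lifr had levels of 10.82 and 10.85 in the male DKO lines 51 and 61 and 10.61 and 10.10 in the female DKO lines 60 and 59, against 10.42 and 10.44 in the male WT lines 6 and 92 and 10.57 and 10.26 in the female WT lines 7 and 94. The male DKO lines lay above both male WT lines, whereas the female groups overlapped. The pair ratios were 0.40 and 0.41 in males and 0.04 and -0.16 in females, with a mean of 0.17 (SE 0.119, limma adjusted p = 0.406). The male minus female difference was 0.47 (SE 0.135, 95% interval 0.10 to 0.83) with a limma adjusted p of 0.835. Sex and slide cannot be told apart in these arrays.

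The second Lifr probe followed the first. Its pair ratios were 0.36 and 0.20 in males, -0.05 and -0.06 in females and 0.43 in T2KO over T1KO. With the dye cancelled its value was -0.07 (SE 0.0801). The probe for transcript variant 2 gave a lower ratio than the first in every pair of lines. Its male minus female difference was 0.43 (0.47 for the first). Its levels were 8.31, 8.41, 8.00 and 7.96 in DKO lines 51, 61, 60 and 59, against 8.40, 8.70, 8.70 and 8.50 in WT lines 6, 92, 7 and 94. DKO and WT overlapped only between DKO 61 and WT 6, and the ratios of -0.09, -0.29, -0.70 and -0.55 averaged -0.41 (SE 0.115, limma adjusted p = 0.112). Set against the brightest Lifr probe on the same arrays, this probe's log2 ratio was lower by 0.50, 0.70, 0.73 and 0.39 in the DKO over WT pairs and by 0.43 in T2KO over T1KO. All of these were read with the same orientation of the dyes, and in each the Cy5 line lacked Tet2 and the Cy3 line did not. With the dye cancelled, and a common Tet2 effect with it, the probe's value was -0.08 (SE 0.0888). Dye and Tet2 loss cannot be told apart here.

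Il6st, which encodes gp130, had levels of 11.49, 11.10, 11.08 and 10.63 in DKO lines 51, 61, 60 and 59, against 11.33, 10.95, 10.96 and 11 in WT lines 6, 92, 7 and 94. DKO 51 and WT 6, which form a pair, had the highest level of their genotype, and the lowest of all 11 lines was in DKO 59. Averaged over the pairs, the log2 ratio was 0.01 (SE 0.112, 95% interval -0.27 to 0.30, limma adjusted p = 0.954). In T2KO 16 the level was 11.30, against 11.03 in T1KO 99 and 10.80 in T1KO 65. The ratio of T2KO 16 over T1KO 65 was 0.50 (SE 0.206, limma adjusted p = 0.423).

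Jak1, the receptor-bound kinase, had the highest levels in the T1KO lines. They were 12.46 in T1KO 99 and 12.57 in T1KO 65, against 11.60 in WT 6 and 11.86 in WT 92, all read in Cy3, and the groups did not overlap. The difference was 0.78 (SE 0.131, 95% interval 0.46 to 1.11), a 1.72-fold higher level in T1KO. Its unadjusted p was 0.00107 and its limma adjusted p 0.199. In that comparison 13.3% of all tested probes had an unadjusted p under 0.05, and Jak1 was the 1 member probe among them. The difference lay between 0.65 and 0.92 under the alternatives tried, without each line in turn among them. T1KO and WT lines lay on different slides, so slide and genotype cannot be told apart here, and the third slide also carried T2KO 16, with a Jak1 level of 12.19 in Cy5.

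In the DKO lines Jak1 stood nearer to WT. Its levels were 11.84, 12.09, 12.23 and 12.10 in DKO lines 51, 61, 60 and 59, against 11.60, 11.86, 12.07 and 11.99 in WT lines 6, 92, 7 and 94. The DKO line was the higher one in all 4 pairs, with ratios of 0.24, 0.23, 0.16 and 0.11 (mean 0.18, SE 0.0584, limma adjusted p = 0.134). The SD of these ratios was 0.0622, against a median SD of 0.173 over all tested probes. The T2KO over T1KO ratio was -0.38 (SE 0.120) and Tet1 loss with the dye cancelled was 0.31 (SE 0.0734, 95% interval 0.11 to 0.50, limma adjusted p = 0.402). With normexp fitted on all spots they were -0.05 and 0.14. Male DKO minus T2KO, both in Cy5, was -0.23 (SE 0.166), so the T1KO lines were high against WT while the male DKO lines were not high against T2KO. With median centring the DKO over WT ratio of Jak1 was 0.50 (limma adjusted p = 0.0103), a setting under which 91.8% of the 8318 called probes were higher in DKO.

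**Figure D3:**
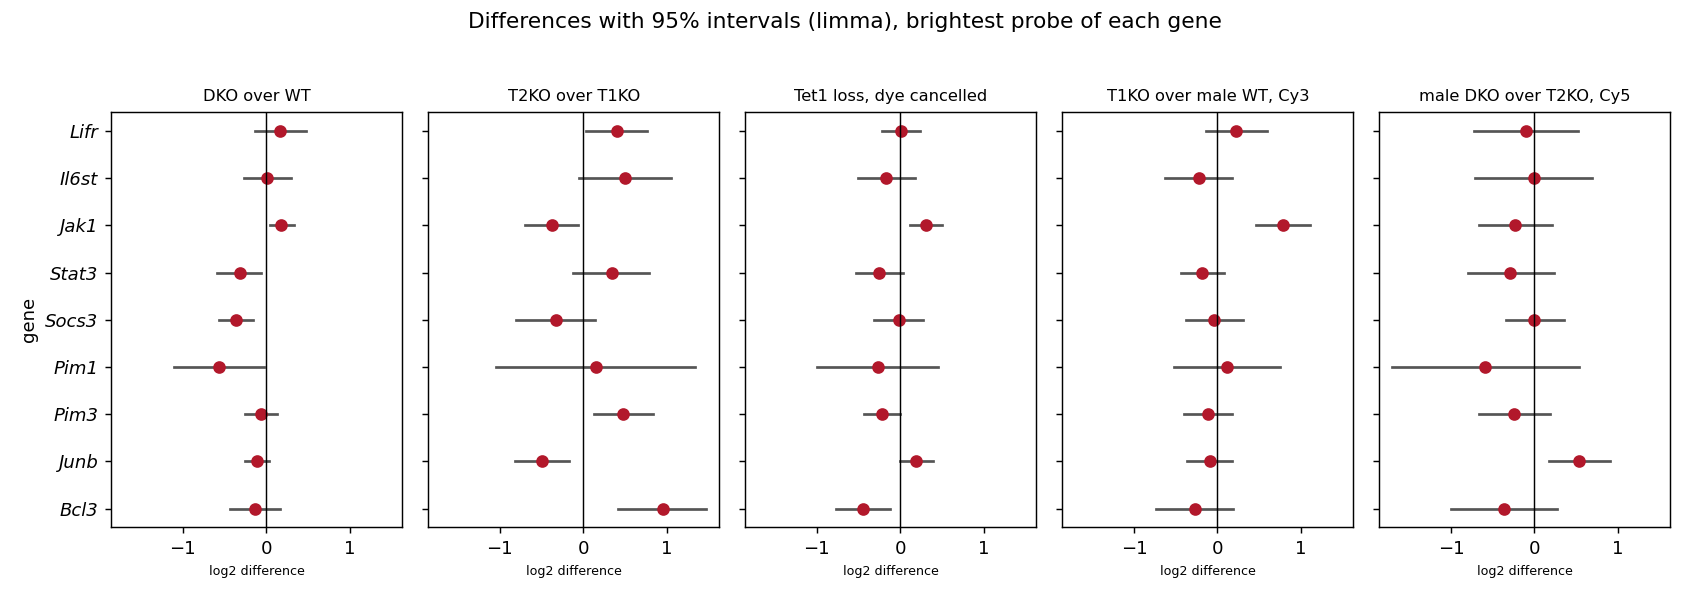
Log2 difference (x axis) of the brightest probe of each gene (rows) in 5 comparisons, with limma's 95% interval as the line. The interval for Jak1 in T1KO over WT runs from 0.46 to 1.11 and that for Bcl3 in T2KO over T1KO from 0.42 to 1.47, while no value passed the adjusted threshold.

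Stat3, the transcription factor of the pathway, was measured by a probe with 10 spots on each array and by a dimmer one with 1 spot. On the first its levels were 12.35, 11.97, 11.57 and 11.65 in DKO lines 51, 61, 60 and 59, against 12.35, 12.28, 12.15 and 12.04 in WT lines 6, 92, 7 and 94. DKO 51 equalled its WT partner, and the other 3 DKO lines lay below every WT line. The ratios of -0.01, -0.31, -0.59 and -0.39 averaged -0.32 (SE 0.105, 95% interval -0.59 to -0.06, limma adjusted p = 0.139), a 1.25-fold difference. The second probe gave ratios of -0.17, -0.17, -0.47 and -0.21 (mean -0.26, SE 0.0764, limma adjusted p = 0.122).

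Unlike Socs3, Stat3 had the opposite sign in the other pair of lines. It was 12.45 in T2KO 16, the highest of all 11 lines, and 12.16 and 12.11 in T1KO 99 and 65. The T2KO over T1KO ratio was 0.34 (SE 0.170, limma adjusted p = 0.489). Tet1 loss with the dye cancelled was -0.25 (SE 0.104, 95% interval -0.53 to 0.03) on the first probe and -0.22 (SE 0.0910) on the second. T1KO minus male WT was -0.18 (SE 0.104) and male DKO minus T2KO was -0.29 (SE 0.196) on the first probe. None of these passed the threshold. With median centring the DKO over WT value of the first probe was 0.00.

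Among the STAT3 targets, Pim1 varied most between pairs. Its levels were 10.88, 10.09, 10.20 and 10.84 in DKO lines 51, 61, 60 and 59, against 10.65, 11.11, 10.92 and 11.58 in WT lines 6, 92, 7 and 94. DKO 51 lay above its WT partner by 0.23, whereas the other pairs had ratios of -1.03, -0.72 and -0.74. The mean was -0.56 (SE 0.213, 95% interval -1.10 to -0.03, limma adjusted p = 0.178), and without the pair of DKO 51 it was -0.83. The SD over the 4 pairs was 0.547, at the 93.6th percentile of all tested probes. Pim1 had a level of 11.07 in T2KO 16, and 11.07 and 10.92 in T1KO 99 and 65.

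Pim3, the other kinase, varied little among DKO and WT lines. Its levels were 13.03, 12.94, 12.82 and 12.56 in DKO lines 51, 61, 60 and 59, against 12.93, 12.94, 12.94 and 12.78 in WT lines 6, 92, 7 and 94, and the mean ratio was -0.06 (SE 0.0751, 95% interval -0.25 to 0.13). The level in T2KO 16 was 13.23, the highest of all lines, against 12.91 in T1KO 99 and 12.75 in T1KO 65, a log2 ratio of T2KO 16 over T1KO 65 of 0.48 (SE 0.129, limma adjusted p = 0.316).

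Bcl3 had the largest difference of any member in T2KO over T1KO. Its level was 12.96 in T2KO 16 and 12.01 in T1KO 65, a log2 ratio of 0.95 (SE 0.194, 95% interval 0.42 to 1.47, limma adjusted p = 0.283), or 1.93-fold. These were the highest and the lowest of the 11 lines, and T1KO 99, at 12.55, lay among the WT lines (12.57, 12.53, 12.74 and 12.66 in WT 6, 92, 7 and 94). The DKO lines 51, 61, 60 and 59 had 12.81, 12.37, 12.53 and 12.25, and their pair ratios averaged -0.14 (SE 0.117, limma adjusted p = 0.501). T1KO minus male WT was -0.27 (SE 0.187), and without T1KO 65 it was 0.00.

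Junb was the steadiest member across the DKO over WT pairs. Its levels were 8.15, 8.32, 8.04 and 8.08 in DKO lines 51, 61, 60 and 59, against 8.29, 8.40, 8.13 and 8.20 in WT lines 6, 92, 7 and 94. The ratios of -0.14, -0.08, -0.10 and -0.13 had an SD of 0.0278 and a mean of -0.11 (SE 0.0545, limma adjusted p = 0.267). T2KO 16 stood apart with the lowest level of all lines, 7.70, against 8.31 in T1KO 99 and 8.20 in T1KO 65. T2KO 16 over T1KO 65 gave -0.50 (SE 0.121, limma adjusted p = 0.306), and male DKO minus T2KO, both in Cy5, was 0.53 (SE 0.141, 95% interval 0.17 to 0.90, limma adjusted p = 0.338). With normexp fitted on all spots the T2KO over T1KO ratio was -0.03, so its size depends on the background setting. Over the settings tried this ratio lay between -0.63 and -0.03, and male DKO minus T2KO lay between 0.30 and 0.62.

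The members' T2KO over T1KO ratios ran from -0.50 for Junb to 0.95 for Bcl3, and those of DKO 61 over WT 92 from -1.03 to 0.41. Of the 12 member probes, 8 had a ratio above 0 and 4 below, the median was 0.30 against 0.01 for all tested probes, and the 6 with an unadjusted p under 0.05 stand against 12.7% of all tested probes. With only the brightest probe of each gene tested, there were 5 of 9 members, against 2702 of 20666 probes. This comparison has 1 pair of lines, assumed to vary like the DKO over WT pairs, and its ratio is itself part of the value with the dye cancelled. In DKO over WT the member medians by pair were 0.13 for DKO 51 and WT 6, -0.12 for DKO 61 and WT 92, -0.17 for DKO 60 and WT 7 and -0.30 for DKO 59 and WT 94. Those of all tested probes lay at 0.01 to 0.02 in each pair.

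Marker lists of cell states were read in the same arrays. In T2KO over T1KO, 9 of 10 ES cell markers had a ratio above 0 (median 0.60), 0 of 7 primed epiblast markers (median -1.36), 0 of 8 primitive endoderm markers (median -0.58) and 1 of 9 immediate-early genes (median -0.61), the class to which Junb belongs. The median level of the ES cell markers was 15.20 in T2KO 16, against 14.77 in T1KO 99 and 14.22 in T1KO 65. That of the immediate-early genes was 11.75, against 11.83 and 12.07 in the same T1KO lines. The DKO lines 51, 61, 60 and 59 were read in Cy5 like T2KO 16. Their medians were 14.85, 14.61, 14.47 and 14.64 for ES cell markers and 11.56, 12.04, 11.54 and 11.78 for immediate-early genes. Marker lists also shifted in the DKO over WT pairs. For DKO 51, 61, 60 and 59 the median ratios of primed epiblast markers were -0.48, 0.36, 1.25 and 0.03. Those of primitive endoderm markers were 0.29, -0.21, 0.44 and 0.41, and those of ES cell markers 0.02, -0.04, -0.25 and -0.23. No tested probe passed the threshold in T2KO over T1KO in limma, these genes included. The part of these differences in the members' ratios was not tested.

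The feeder fibroblast markers had median ratios of -0.11 and -0.45 in the male DKO over WT pairs of DKO 51 and DKO 61, 0.91 for DKO 60 over WT 7 (14 of 15 above 0), 0.01 for DKO 59 over WT 94 and -0.02 for T2KO over T1KO. Their median level was 11.27 to 11.96 in DKO lines, 11.09 in T2KO 16, 11.08 to 11.69 in T1KO lines and 10.90 to 11.85 in WT lines, and the defining collagen genes Col1a1, Col1a2 and Col3a1 were well above background on all 10 arrays in both channels, with Col1a1 at 12.70 to 13.75 over all 11 lines. The defining ES cell genes had levels of 15.17 to 15.72 (Pou5f1), 15.10 to 15.96 (Nanog) and 12.08 to 12.88 (Sox2) over all lines. The part of feeder RNA in the members' ratios was not tested. In RNA of mixed cells, fewer cells of a type and less RNA per cell cannot be told apart.

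**Figure D4:**
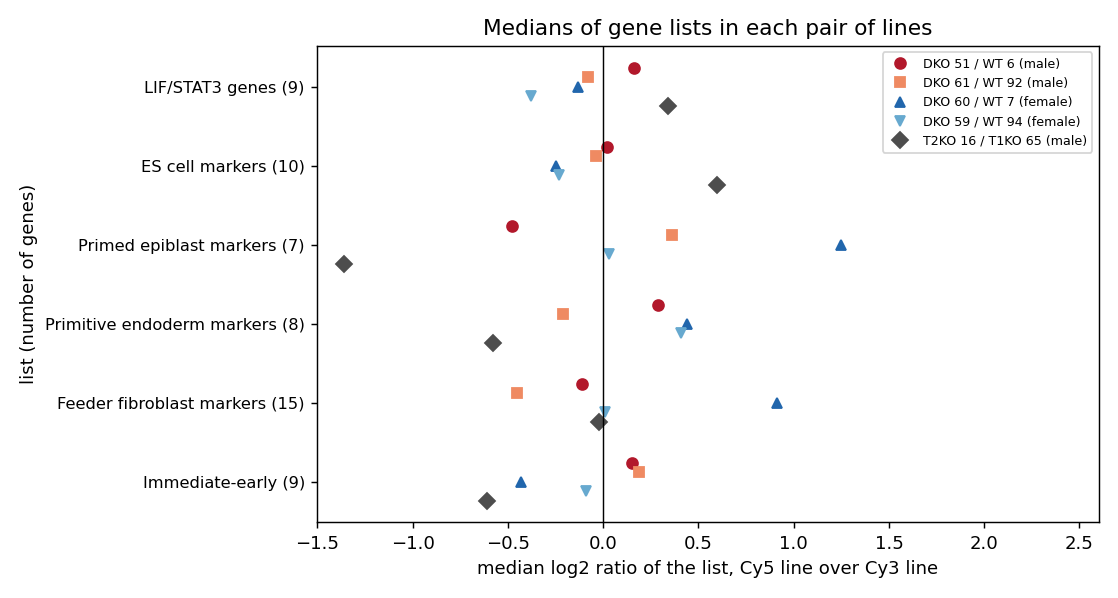
Median log2 ratio of the Cy5 line over the Cy3 line (x axis) of the 9 LIF and STAT3 genes and of 5 gene lists (rows), 1 point per pair of lines. The T2KO over T1KO pair has the highest median of ES cell markers (0.60) and the lowest of primed epiblast markers (-1.36), and DKO 60 over WT 7 has the highest of feeder fibroblast markers (0.91).

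Of the wider pathway, 50 further genes tested by their brightest probes are reported here, and none of them passed the adjusted threshold in DKO over WT in limma. By role, 0 of 7 ligand genes, 0 of 4 further receptor genes, 0 of 7 kinases and STATs, 0 of 9 adaptors, 0 of 13 inhibitors and 0 of 10 further STAT3 targets passed in limma, with median log2 ratios of 0.02, -0.03, -0.26, -0.01, -0.02 and -0.03. At an unadjusted p under 0.05 there were 0, 0, 5, 2, 3 and 1 in these classes. Of all tested probes in DKO over WT, 4.0% passed the adjusted threshold and 26% had an unadjusted p under 0.05. Jak3, a kinase of the gamma-chain cytokine receptors, had -0.38 (SE 0.0764) and Stat2, a STAT of interferon signalling, had -0.38 (SE 0.0776). Tyk2, another kinase of the JAK family, had -0.35 (SE 0.107). Of the inhibitors, Socs6 had 0.29 (SE 0.0607) and Cish, a STAT5 target of the SOCS family, had -0.32 (SE 0.110). Pias1, which encodes a SUMO ligase that restrains STAT signalling, had 0.35 (SE 0.0950). In T2KO over T1KO, Jak3, Stat2, Tyk2, Socs6, Cish and Pias1 had 1.13, -0.28, -0.22, -0.04, -0.34 and 0.06. With the dye cancelled the same genes had -0.69, -0.01, -0.08, 0.19, -0.06 and 0.13. The probe of the further target Pramel7 was well above background on 8 of 10 arrays in Cy5 and 3 in Cy3. Background therefore limits its ratio and none is given. The probe of the adaptor Sos1 was well above background on 8 arrays in Cy5 and 0 in Cy3. Pramel7 and Sos1 are among the genes counted above at an unadjusted p under 0.05. The levels of Pramel7 were 6.73, 7.07, 8.30 and 9.21 in DKO lines 51, 61, 60 and 59, against 6.64, 6.52, 7.06 and 7.56 in WT lines 6, 92, 7 and 94, highest in the female DKO lines.

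The gene patterns most like that of Socs3 over the 11 lines, with the mean of the lines in each dye subtracted, were those of Mcmbp (r = 0.957), Foxp1 (0.953), Rffl (0.950), Vars (0.941) and Zfp13 (0.940), out of 19522 ranked probes of other genes. Of the members, Stat3 came highest, at place 2002 (r = 0.581), followed by Il6st (0.482), Lifr (0.397), Pim3 (0.379), Junb (0.251), Bcl3 (-0.0603), Pim1 (-0.0898) and Jak1 (-0.134). Points that share an array share its normalization, and these values describe the lines only.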

How the data were processed

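RNA of ES cell lines was measured on 10 two-colour arrays. Per the file headers, the deposited scanner files hold raw spot intensities (mean signal and median local background in each channel), processed intensities, and the log10 ratio of processed Cy5 over Cy3 that the scanner software wrote. The authors' deposited value table behaves like log2 of Cy5 over Cy3 (r = 0.925 to 0.971 with the scanner's log10 ratios, slope 2.77 to 2.93), which settles its direction. No source used here states how it was normalized or centred. Of its 31595 probes 31539 matched a scanner file, and its column medians were 0.00178, 0.00341, 0.00544, 0.00499, 0.00321, 0.00752, 0.00669, 0.00565, 0.00211 and 0.00685. It served as an alternative.

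Background was corrected with normexp (offset 50), leaving 71 to 122 gene spots below local background on each array out of its fit. Ratios were normalized by loess and channels by Aquantile in limma 3.58.1 on R 4.3.3, with data.table (1.17.8) and jsonlite 2.0.0. Figures used matplotlib 3.10.9. Outlier-marked spots were left out (173 to 337 per array). Spots of a probe, and then repeat arrays of 1 pair, were averaged, so the pair of lines, or the line, was the replicate. Nothing says that repeat arrays held separate cultures. Tested probes (25869 of 39429) had to be well above background throughout a group of genotype and sex. The fits (lmFit and eBayes) were tested on simulated data. Where the T2KO line or pair stands alone, it is assumed to vary like the DKO lines or pairs. The T1KO 99 levels share their normalization with the excluded Cy5 sample. Of the probes, 26581 were named through a RefSeq accession. Other genes of the pathway were named by at most 3 per class with the smallest p in DKO over WT. Defining cell type markers, the targeted genes and the genes most like Socs3 were named beside them. The members, the lists and the background setting were chosen with earlier results of these data known. 1 gene of the wider pathway list is not reported here. Alternatives covered background, normalization, filter, probes per gene, variance prior, sex, repeat arrays and leaving out each pair or line. Precision is limited by how few lines and arrays there are.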

Additional observations from a re-analysis of the deposited data

Results flagged for a closer look

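In 36 groups of 4 values (the DKO over WT ratios, the DKO levels and the WT levels of each probe), a value was singled out where its gap to the nearest other exceeded the critical share of the group's range in Dixon's test at 95%, which chance alone does in about 1 of 20 groups. Il6st had a log2 ratio of -0.38 in DKO 59 over WT 94, against 0.12, 0.15 and 0.16 in the other pairs. The dimmer Stat3 probe had -0.47 in DKO 60 over WT 7, against -0.21, -0.17 and -0.17. The level of Il6st in WT 6 was 11.33, against 10.95 to 11 in the other WT lines, and that of Pim3 in WT 94 was 12.78, against 12.93 to 12.94. The second Lifr probe was singled out for another reason, because both male pairs had a ratio above 0 (0.36 and 0.20) and both female pairs a ratio below 0 (-0.05 and -0.06), a male minus female difference of 0.33 whose limma adjusted p was 0.835. The other Lifr probes had differences of 0.47 and 0.43, also with a limma adjusted p of 0.835, but without that split in sign.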

How the results depend on the processing

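No paired analysis was possible because the replicate numbers count repeat arrays of 1 pair of lines. The hybridisation itself pairs DKO with WT, and the ratios hold that pairing. Of 894 member values under the alternatives, 2 passed the threshold, so the count of member probes past it in DKO over WT was 1 in place of 0 under median centring (Jak1) and 1 with every array kept and the pair as a random block (Socs3). No called member value changed sign. Median centring set the all-probe median of DKO over WT at 0.19 and gave 0.06 for Socs3, 0.30 for Pim3, 0.03 for Junb and 0.21 for Bcl3, each negative in the main setting, and 0.05 for Jak1 in T2KO over T1KO. Normexp on all spots gave T2KO over T1KO values of 0.30 for Il6st and 0.01 for the dimmer Stat3 probe, against 0.50 and 0.27. The 1035 probes past the threshold in DKO over WT (61.2% higher in DKO) became 190 with normexp on all spots, 405 with probes well above background on every array, 0 with a variance prior that follows intensity, 8318 with median centring (91.8% higher), 537 in the authors' value table, 7 with sex as a covariate, 0 with male pairs alone, 0 with female pairs alone and 1741 with the random block (51.5% higher). With the scanner's log ratio 73.3% of 778 were higher. Leaving out any 1 pair gave 0 to 0 calls in limma, with 4491 to 6047 probes at an unadjusted p under 0.05. For Tet1 loss with the dye cancelled, 5 probes passed with no filter on dim probes, in place of 0. For T1KO over male WT, 3 passed with the scanner's processed signals, in place of 0. For male DKO over T2KO, the 2 calls became 1 with normexp on all spots, 1 with the strict filter, 4 with the intensity-dependent prior, 0 with the processed signals, and 0 to 0 without 1 DKO line. Of the 12 member probes 9 are in the authors' table. With no dye swap, dye limits every ratio across channels.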
